A study of Mus musculus with 20 samples.

Results

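The 8 chemokine genes Ccl2, Ccl7, Ccl5, Cxcl10, Cxcl1, Cxcl5, Cxcl12 and Cx3cl1 were followed through adipocyte differentiation of mouse 3T3-L1 cells in which Tcf7l2 had been silenced. They were taken by gene symbol from the 5 deposited day tables, each of which lists 33581 genes, and all 8 were found in every table. All 8 also passed the filter on low values, which kept the 16497 genes whose mean normalised count reached 10 in some table. RNA was sequenced from 3T3-L1 cells, a preadipocyte line that forms fat-storing adipocytes after hormonal induction. Tcf7l2 encodes a transcription factor that works with beta-catenin downstream of Wnt signals, and the series compares its silencing with a control hairpin during adipogenesis.

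The 10 groups were scrambled-hairpin cells and Tcf7l2-hairpin cells at days 0, 2, 4, 6 and 8 of differentiation, with 2 libraries in each group and 20 in all. Cells of both arms carried a lentiviral SMARTvector, had been infected at low passage and had been selected with puromycin as a mixed population rather than as clones. A thiazolidinedione was not a routine part of the differentiation medium in either arm. The labels name a single hairpin per arm, so off-target and vector effects cannot be told apart from loss of Tcf7l2. Nothing in them says that the 2 libraries of a group are separate cultures, and the p-values therefore measure only their spread, part of which may be technical.

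Chemokines are small secreted proteins that draw leukocytes along a gradient by binding G protein-coupled receptors. In adipose tissue they are made by preadipocytes, adipocytes, vessel and immune cells, and many of their genes are switched on by NF-kB after cytokine or toll-like receptor signals, or by interferon through STAT and IRF factors. Ccl2 and Ccl7 attract monocytes through Ccr2, Ccl5 attracts T cells and monocytes, and Cxcl10 attracts activated T cells through Cxcr3. Cxcl1 and Cxcl5 attract neutrophils through Cxcr2. Cxcl12 is a constitutive stromal chemokine that retains progenitor cells through Cxcr4, and Cx3cl1 is a membrane-anchored chemokine that acts through Cx3cr1.

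Library totals ranged from 20153362 to 33973608 reads. Tcf7l2 was at 36.9%, 38.9%, 31.8%, 32.2% and 33.7% of the scrambled mean at days 0 to 8 and was lower in both knockdown libraries on all 5 days. The 2 scrambled libraries of a day stood further apart late in the course, with an SD across genes of their log2 difference of 0.453, 0.490 and 0.598 at days 4, 6 and 8 against 0.230, 0.233 and 0.263 in knockdown cells. Of these scrambled pairs, library 2 had more of the adipocyte hormone Adipoq, at 907, 2255 and 3307 RPM (recovered reads scaled to 1000000 per library) against 282, 1481 and 900 RPM in library 1. Fibroblast markers summed to 11614 to 44866 RPM in scrambled and 15644 to 41997 RPM in knockdown libraries. On average 4 of 8 were called higher and 1 lower under the knockdown (median 0.41 on the deposited log2 scale), against 12.3% and 13.2% of all tested genes. All 6 adipocyte markers fell on average under the knockdown, where 13.2% of all tested genes fell, with a median of -1.38 on the deposited log2 scale. Their summed levels were 48.0 to 13254 RPM in scrambled and 28.8 to 2474 RPM in knockdown libraries. The part of these marker changes in the chemokine levels was not tested.

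Ccl2, Ccl7, Ccl5 and Cxcl10 rose in knockdown cells when the effect was averaged over the days. In each of them both knockdown libraries lay above both scrambled libraries on all 5 days, a pattern seen in 3.85% of the 16497 tested genes. Cxcl12 fell, by 0.45 on the deposited log2 scale, and the averages of Cxcl1, Cxcl5 and Cx3cl1 did not pass the test. The count was therefore 5 of 8 called at an adjusted p of 0.05 (limma, Benjamini-Hochberg), 4 higher and 1 lower, where 25.4% of all tested genes were called, 12.3% higher and 13.2% lower. The median average effect of the 8 genes was 0.62, and that of all tested genes was -0.00280. In bulk RNA, fewer cells that make a transcript and less of it per cell cannot be told apart.

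**Figure D1:**
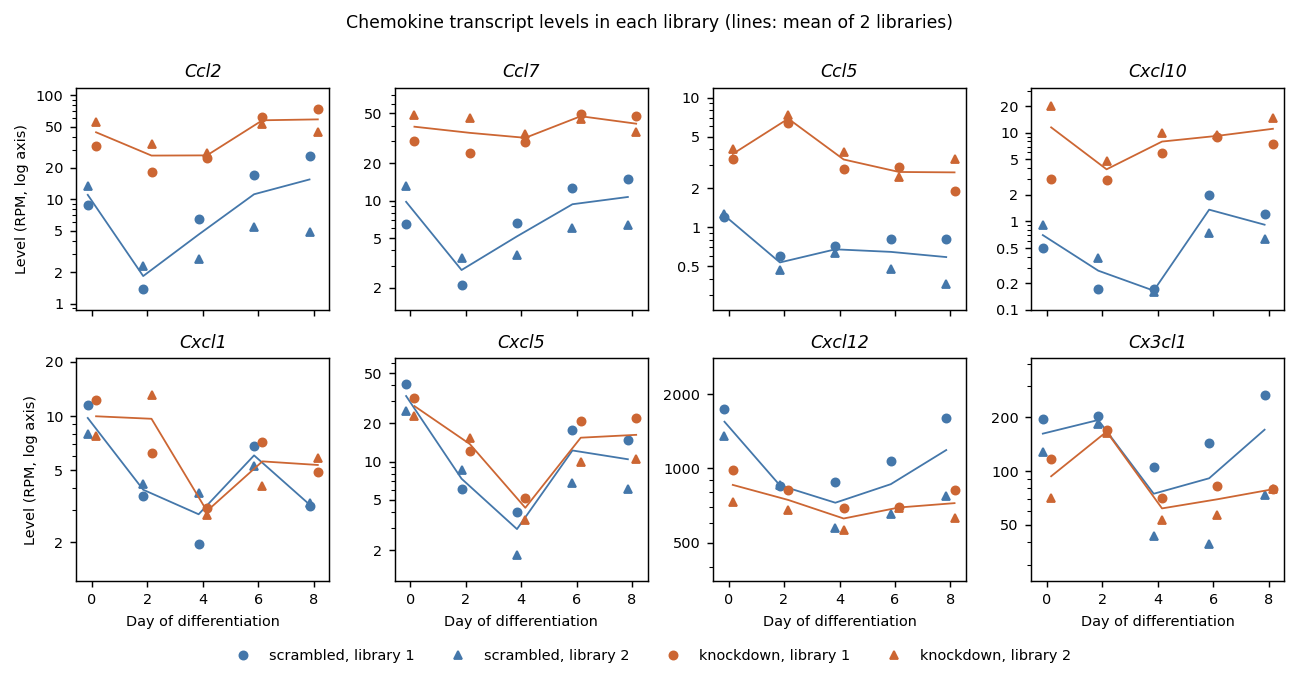
Level of each chemokine in RPM (log axis) against the day of differentiation. Points are single libraries, blue for scrambled and orange for knockdown, with circles for library 1 and triangles for library 2, and lines join the means of 2 libraries. The orange and blue points of Ccl2, Ccl7, Ccl5 and Cxcl10 do not overlap on any of the 5 days, while those of Cxcl1, Cxcl5, Cxcl12 and Cx3cl1 overlap on at least 3 of them.

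Ccl2 (ENSMUSG00000035385.5), also known as monocyte chemoattractant protein, is the main ligand that recruits monocytes into fat. In scrambled cells at days 0, 2, 4, 6 and 8 it stood at 8.73 and 13.4, 1.37 and 2.30, 6.54 and 2.65, 17.0 and 5.39, and 26.1 and 4.90 RPM in libraries 1 and 2. In knockdown cells the same days gave 32.2 and 55.8, 18.3 and 34.3, 25.1 and 27.8, 62.3 and 52.5, and 73.1 and 44.0 RPM. The knockdown libraries were above the scrambled ones on every day, and within the scrambled arm the lowest levels were at day 2 and the pairs of days 4, 6 and 8 were wide apart, with library 1 above library 2. The ratio of mean RPM was 3.99, 14.3, 5.75, 5.13 and 3.77 at days 0 to 8. The average effect on the deposited log2 scale was 1.98 (SE 0.217, limma adjusted p 9.33e-06), with 10 libraries per arm. Because these variance-stabilised values compress low genes, the same average on recovered reads was larger, at 2.54 (limma voom adjusted p 1.08e-05).

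Single-day tests of Ccl2 rested on 2 libraries against 2 and gave limma adjusted p of 0.403, 0.264, 0.112, 0.0390 and 0.0461 at days 0 to 8, with effects of 1.63, 2.04, 2.00, 2.21 and 2.02 (SE 0.541). With the libraries of 1 number within a day kept as a block, days 2 and 4 passed as well, at 0.0468 and 0.0219. The calls of days 6 and 8 were fragile: that of day 6 ended without any 1 of 11 of the 20 libraries (adjusted p 0.0516 to 0.406), and that of day 8 without any 1 of 15 (0.0550 to 0.441). For day 6 these were all scrambled libraries of days 0 and 2, all knockdown libraries of days 2, 4 and 6, and scrambled library 2 of day 6. For day 8 they were all libraries other than scrambled libraries of days 4 and 6 and scrambled library 1 of day 8. Without scrambled library 2 of day 8, the lower of its pair, the Ccl2 effect of that day was 1.08. On recovered reads the calls of days 6 and 8 also ended (limma voom adjusted p 0.0538 and 0.0614).

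Ccl7 (ENSMUSG00000035373.2), a monocyte chemokine that shares the receptor Ccr2, lies next to Ccl2 in the gene order of chromosome 11. Its scrambled libraries gave 6.45 and 13.1, 2.11 and 3.44, 6.64 and 3.69, 12.7 and 6.01, and 14.99 and 6.40 RPM at days 0, 2, 4, 6 and 8. Its knockdown libraries gave 30.1 and 48.2, 23.9 and 46.0, 29.4 and 34.4, 50.0 and 45.1, and 47.4 and 35.4 RPM. Every knockdown value was above every scrambled value, also across days, and scrambled levels were lowest at day 2. The ratio of mean RPM was 4.00, 12.6, 6.17, 5.08 and 3.87, and the average effect was 1.95 (SE 0.153, limma adjusted p 3.49e-07). Across the 10 libraries of an arm, log2 levels of Ccl2 and Ccl7 correlated at 0.98 in scrambled and 0.89 in knockdown cells, a description over libraries that share the hairpin.

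Ccl7 passed the test at 4 single days, with effects of 2.16, 2.10, 2.08 and 1.79 (SE 0.370) and limma adjusted p of 0.0301, 0.00838, 0.00883 and 0.0157 at days 2 to 8. At day 0 its effect of 1.64 had an adjusted p of 0.120, or 0.0197 with the replicate block. Each call depended on single libraries of its own day. The day 2 call ended without any of the 4 libraries of that day or any knockdown library of days 4 and 6 (0.0515 to 0.488). The calls of days 4, 6 and 8 ended without either knockdown library, or scrambled library 2, of the day tested (0.0535 to 0.129, 0.0620 to 0.122 and 0.0747 to 0.184).

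Ccl5 (ENSMUSG00000035042.2), known as RANTES, rested on 11 to 41 reads per scrambled library and 40 to 215 per knockdown library. Scrambled levels were 1.19 and 1.28, 0.602 and 0.471, 0.722 and 0.631, 0.817 and 0.477, and 0.813 and 0.366 RPM at days 0 to 8. Knockdown levels were 3.35 and 4.01, 6.35 and 7.39, 2.83 and 3.83, 2.91 and 2.43, and 1.92 and 3.38 RPM. Both knockdown libraries were above all scrambled libraries of any day, and both were highest at day 2. From day 0 to day 8 the ratio of mean RPM was 2.98, 12.8, 4.92, 4.13 and 4.49. The average effect was 0.94 (SE 0.0744, limma adjusted p 3.59e-07) on the deposited scale and 2.37 on recovered reads (limma voom adjusted p 1.96e-06).

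Ccl5 was called at days 2, 4, 6 and 8, with effects of 1.22, 0.95, 0.86 and 0.98 (SE 0.157) and limma adjusted p of 0.00638, 0.00489, 0.00978 and 0.00490. Day 0 gave 0.68 and an adjusted p of 0.123. Leaving out 1 library ended the day 2 call for each of the 4 libraries of that day (0.0528 to 0.0983) and the day 4 and day 8 calls for either arm's library 2 of that day (0.0623 and 0.0948, 0.0560 and 0.0684). The day 6 call ended without scrambled library 2 or either knockdown library of day 6 (0.0534 to 0.124).

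Cxcl10 (ENSMUSG00000034855.7), the interferon-induced ligand of Cxcr3, rested on 4 to 46 reads per scrambled library and 76 to 585 per knockdown library. Scrambled cells held 0.496 and 0.903, 0.172 and 0.383, 0.172 and 0.158, 1.98 and 0.733, and 1.20 and 0.633 RPM at days 0 to 8. Knockdown cells held 3.03 and 20.03, 2.90 and 4.85, 5.98 and 9.96, 8.97 and 9.53, and 7.58 and 14.6 RPM. Every knockdown library was above every scrambled one, with a wide pair in knockdown cells at day 0 and the lowest scrambled values at day 4. The ratio of mean RPM was 16.5, 13.96, 48.3, 6.82 and 12.1, and the day 4 ratio rests on 5 reads in each scrambled library. The average effect was 1.75 (SE 0.204, limma adjusted p 1.70e-05) on the deposited scale and 3.69 on recovered reads (limma voom adjusted p 2.22e-05).

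At single days Cxcl10 was called at days 4, 6 and 8, with effects of 2.17, 1.70 and 2.205 (SE 0.440) and limma adjusted p of 0.0215, 0.0483 and 0.0127. Days 0 and 2 gave 1.72 and 0.95, with adjusted p of 0.175 and 0.987. The deposited value at 0 reads was highest at day 2 (6.94, against 4.995 to 5.87 on other days), so low genes were compressed most there. On recovered reads days 0 and 2 gave 3.48 and 3.73 (limma voom adjusted p 0.237 and 0.327). A separate limma fit of day 2 alone called Cxcl10 (adjusted p 0.0373). The day 4 call ended without any of the 4 libraries of that day (0.0699 to 0.257), and the day 8 call without library 2 of either arm (0.119 and 0.133). The day 6 call ended without any 1 of 15 libraries (0.0538 to 0.394), all but the knockdown libraries of day 0, the scrambled libraries of day 8 and scrambled library 1 of day 6. On recovered reads days 4, 6 and 8 gave effects of 5.44, 2.90 and 3.59, with limma voom adjusted p of 0.0668, 0.0964 and 0.0524. The day 0 value depended on the wide knockdown pair: without library 1 the effect was 2.64 and passed (adjusted p 0.0104), and without library 2 it was 0.80 (0.762).

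The promoter of Cxcl10 is shown with that of Cxcl1, since both hold NF-kB letters and one rose while the average of the other did not pass the test. Promoter entries of RefSeq (GRCm38.p6) were found for 4 of the 8 genes, Cxcl1, Cxcl10, Cxcl12 and Cx3cl1. The sequences are the 250 bases before the start, 5′ to 3′ on the gene's strand, Cxcl10 at chr5:92348890-92349139 on the minus strand and Cxcl1 at chr5:90890995-90891244 on the plus strand. Capitals mark matches on either strand to the NF-kB letters GGGA, any 4 bases, CC, or to the interferon-stimulated response element letters GAAA, any 2 bases, GAAA.
Cxcl10: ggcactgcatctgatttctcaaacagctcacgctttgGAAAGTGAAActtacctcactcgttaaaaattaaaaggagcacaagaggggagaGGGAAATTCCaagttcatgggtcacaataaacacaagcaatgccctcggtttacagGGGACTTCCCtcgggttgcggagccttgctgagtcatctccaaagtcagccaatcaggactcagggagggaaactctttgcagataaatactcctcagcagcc
Cxcl1: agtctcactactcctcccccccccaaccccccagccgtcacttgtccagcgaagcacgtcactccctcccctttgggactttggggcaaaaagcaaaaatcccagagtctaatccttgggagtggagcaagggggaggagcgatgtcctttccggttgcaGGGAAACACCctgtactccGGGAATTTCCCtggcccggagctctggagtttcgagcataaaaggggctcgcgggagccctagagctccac
Cxcl10 had NF-kB matches beginning 159 and 103 bases before the start and an interferon element match, GAAAGTGAAA, at 213. Cxcl1 had NF-kB matches at 90, 71 and 70, the last 2 of which overlap, and no interferon element match in this window. Cxcl12 had a match to the Tcf/Lef letters CTTTGA at 162, and Cx3cl1 had no match to any of the 3 motifs. Of 32851 promoter windows of this length, 17.6% held the NF-kB letters, 2.98% the interferon element letters and 13.8% the Tcf/Lef letters.

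**Figure D2:**
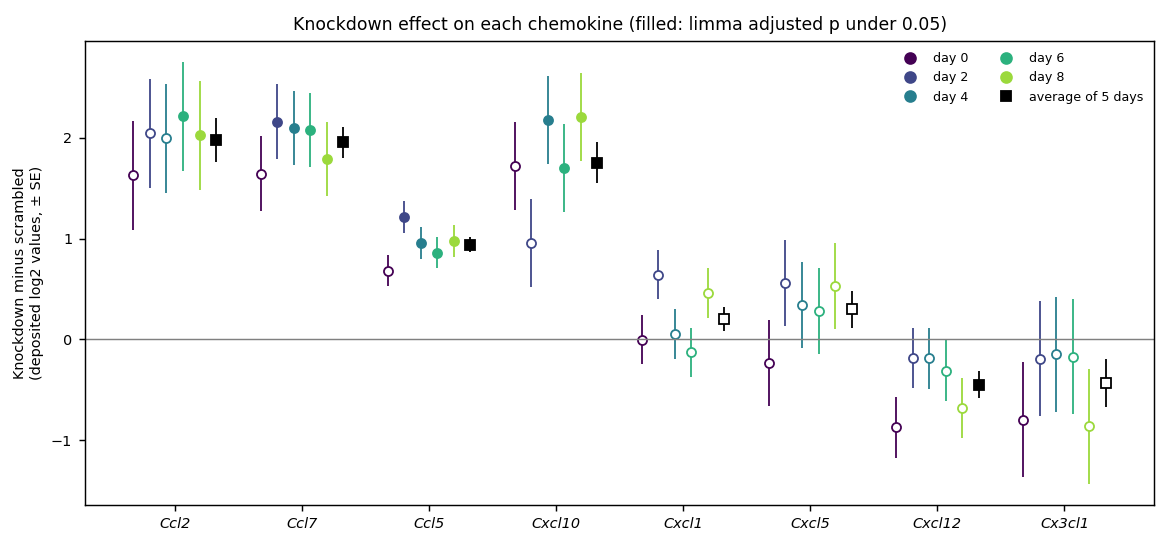
Knockdown minus scrambled on the deposited log2 scale (y axis) for each chemokine (x axis), at each day and averaged over 5 days. Points are limma estimates, bars are ± 1 SE and filled symbols have an adjusted p under 0.05. The averages of Ccl2, Ccl7, Ccl5 and Cxcl10 lie between 0.94 and 1.98, and Cxcl12 is the called gene below 0, at -0.45.

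Cxcl1 (ENSMUSG00000029380.10), a neutrophil chemokine, gave no call on any day. Scrambled levels were 11.5 and 8.00, 3.61 and 4.21, 1.96 and 3.76, 6.79 and 5.32, and 3.18 and 3.30 RPM at days 0 to 8, against 12.2 and 7.71, 6.28 and 13.03, 3.11 and 2.84, 7.14 and 4.08, and 4.89 and 5.83 RPM in knockdown cells. The arms overlapped at days 0, 4 and 6, and both knockdown libraries were higher at days 2 and 8, as in 20.7% and 23.9% of all tested genes. On those days the ratio of mean RPM was 2.47 and 1.66. The average effect was 0.21 (SE 0.119, limma adjusted p 0.214).

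Cxcl5 (ENSMUSG00000029371.5), which acts through the same neutrophil receptor, lies in the same group of Cxcl genes on chromosome 5. Scrambled levels were 40.8 and 25.0, 6.10 and 8.54, 4.02 and 1.83, 17.7 and 6.78, and 14.8 and 6.10 RPM at days 0 to 8. Knockdown levels were 32.0 and 22.9, 12.04 and 15.4, 5.16 and 3.46, 20.9 and 9.91, and 22.0 and 10.5 RPM. The arms overlapped on all days but day 2, when the ratio of mean RPM was 1.88, and library 1 was above library 2 in both arms on the other 4 days. The average effect was 0.30 (SE 0.181, limma adjusted p 0.236), and with the replicate block it passed (adjusted p 0.0254), as did days 2 and 8 (0.0466 and 0.0130).

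Cxcl12 (ENSMUSG00000061353.5) reached at least 562 RPM in every library. Scrambled cells had 1745 and 1348, 849 and 859, 880 and 573, 1072 and 655, and 1598 and 777 RPM at days 0 to 8, against 984 and 732, 814 and 677, 693 and 562, 697 and 693, and 816 and 632 RPM in knockdown cells. Both knockdown libraries were below both scrambled ones at days 0 and 2, as in 14.6% and 24.3% of tested genes, and the arms overlapped later, where scrambled library 1 was above library 2. Mean RPM in knockdown cells was 0.555 of the scrambled mean at day 0 and 0.610 of it at day 8. The average effect was -0.45 (SE 0.135, limma adjusted p 0.0235), with no single day called, day 0 giving -0.87 (adjusted p 0.427) and day 8 giving -0.68 (0.191, or 0.0390 with the replicate block). This call ended without the 4 libraries of day 8 (-0.39, adjusted p 0.0654) and in the libraries numbered 2 alone (-0.35, adjusted p 0.151).

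Cx3cl1 (ENSMUSG00000031778.6), known as fractalkine, gave 197 and 128, 203 and 184, 106 and 43.6, 144 and 38.9, and 268 and 73.8 RPM in scrambled cells at days 0 to 8. Knockdown cells gave 117 and 70.4, 170 and 163, 70.4 and 53.4, 82.3 and 56.9, and 79.1 and 79.4 RPM. The knockdown libraries were lower at days 0 and 2, and at days 4, 6 and 8 they lay within or across the scrambled range, in which library 1 was far above library 2. The ratio of mean RPM was 0.577 at day 0 and 0.464 at day 8, and the average effect was -0.43 (SE 0.237, limma adjusted p 0.185). The day 8 effect of -0.86 (0.387) rested on the scrambled pair, at -0.020 without library 1 (0.984) and -1.70 without library 2 (0.254). The average effect passed without the scrambled libraries numbered 2 of days 4, 6 and 8 (-0.82, limma adjusted p 0.00232). It also passed in the libraries numbered 1 alone (-0.80, 0.0431). All of the chemokines but Cxcl1 were higher in library 1 than in library 2 of scrambled cells at days 4, 6 and 8, the libraries with less Adipoq. At day 4 this difference was slight for Cxcl10, with 5 reads in each library, and for Ccl5, with 21 and 20.

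Day by day, the members called were 0, 2, 3, 4 and 4 of 8 at days 0, 2, 4, 6 and 8, all higher, where 0.224%, 0.267%, 1.61%, 4.12% and 5.75% of tested genes were called. The share called higher among all tested genes was 0.188%, 1.41%, 2.68% and 3.39% at days 2 to 8. At day 0, 5 of 8 had an unadjusted limma p under 0.05, against 6.41% of all tested genes. The authors' deposited tables, made with DESeq2 per day, gave adjusted p-values under 0.05 at day 0 for Ccl2 (1.80e-05), Ccl7 (0.000251), Cxcl10 (0.00127), Cxcl12 (0.0383) and Ccl5 (0.0426). In the authors' deposited table of day 2, Cxcl1 and Cxcl5 also passed, at 0.00743 and 0.0198. Ccl2 at day 2 (DESeq2 adjusted p 1.91e-27) and day 4 (4.95e-07) and Cxcl10 at day 2 (2.87e-08), not called in the main fit, passed there too. In the authors' deposited table of day 8, Ccl2 did not (0.0707). Ordered by average effect on the deposited scale, which compresses low genes, among 16497 genes Ccl2 ranked 38, Ccl7 42, Cxcl10 57 and Ccl5 198, and Cxcl12 ranked 15535.

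The course over days was compared within each arm on recovered reads placed on 1 scale (limma voom, F test of 4 later days against day 0). In scrambled cells Cxcl5 and Cxcl1 changed, 2 of the 8 genes, where 30.4% of tested genes were called. The F test gave an adjusted p of 0.0108 for Cxcl5 and 0.0342 for Cxcl1 (limma voom). Cxcl5 differed from day 0 by -2.01, -3.47, -1.498 and -1.69 on the log2 scale at days 2, 4, 6 and 8 (limma voom adjusted p 0.0149, 0.00428, 0.0540 and 0.0499). Its lowest level was thus at day 4, when both scrambled libraries were below those of all other days. Cxcl1 differed from day 0 by -1.16, -1.71, -0.61 and -1.49 (0.0512, 0.0205, 0.278 and 0.0396). Of the day contrasts, that of Cxcl5 at day 4 ended without scrambled library 2 of day 4 (0.0664), that at day 2 without scrambled library 1 of day 0 or either scrambled library of day 2 (0.0761 to 0.0851), and that of Cxcl1 at day 4 without scrambled library 1 of day 0 or either of day 4 (0.0583 to 0.103). The day 8 contrasts ended without any 1 of 15 libraries for Cxcl5 (0.0506 to 0.436) and 10 for Cxcl1 (0.0538 to 0.219). The Cxcl1 F test lost its call without any 1 of 7 libraries (adjusted p 0.0502 to 0.117), the scrambled libraries of days 0 and 2, scrambled library 1 of day 4 and the knockdown libraries of day 4.

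In knockdown cells Ccl5 changed, 1 of 8, where 12.7% of tested genes were called (limma voom adjusted p 0.00767). It rose by 1.03 on the log2 scale at day 2 (adjusted p 0.0138) and differed from day 0 by -0.053, -0.46 and -0.45 at days 4, 6 and 8 (0.959, 0.600 and 0.643). The F test of Ccl5 lost its call without either knockdown library of day 2 (0.0520 and 0.111), and its day 2 contrast without either knockdown library of day 0 or knockdown library 2 of day 2 (0.0537 to 0.105). Cxcl1 and Cxcl5 gave F test adjusted p of 0.0562 and 0.0710 in knockdown cells. The knockdown effect itself was called as differing between days for 0 of 8, as for 0.0% of all tested genes (limma voom F test), and 1 of 8, Ccl5, had an unadjusted p under 0.05 (0.00843), against 2.82% of all tested genes. With the replicate block the count was also 0, so the larger ratios of day 2 in Ccl2, Ccl7 and Ccl5 were not shown to differ from those of the other days.

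Among the other chemokines, 5 of 12 tested rose on average and 0 fell, where 12.3% of all tested genes rose and 13.2% fell. Of 28 listed, 26 were in the tables. Ccl8, a monocyte chemokine, rose by 0.62 (limma adjusted p 0.000144), and Cxcl11, a further Cxcr3 ligand, by 0.59 (0.000153), each with both knockdown libraries higher on all 5 days. Both were low, with at most 110 and 38 reads in any library and scrambled medians of 0.363 and 0.0638 RPM. Such genes may pass the filter on mean count through their knockdown libraries, so being higher there is partly set by the filter. Cxcl13, the B cell chemokine, rose by 1.01 (0.000712) and reached 99.0 RPM in a knockdown library of day 2, and Ccl11, which attracts eosinophils, rose by 0.40 (0.00327), each separate on 4 of 5 days, where 9.05% of tested genes were higher in this way on at least 4 days. Ccl9, which followed by adjusted p and was picked after its value was seen, rose by 0.79 (0.00485). The Ccl11 call ended in the libraries numbered 2 alone (0.140).

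On chromosome 11, in RefSeq gene order (GRCm38.p6), Ccl2, Ccl7, Ccl11 and Ccl8 lie together, all of them called higher, with Ccl12 between the last 2 and not tested. Ccl5 and its neighbour Ccl9 were called higher, and the next gene Ccl6 was not (0.033, limma adjusted p 0.853). On chromosome 5 Cxcl10 was called and its neighbour Cxcl9, with at most 16 reads in any library, was not (0.12, adjusted p 0.196). The order holds protein-coding entries only and does not place Cxcl11, which was called higher (0.59). None of the 5 tested genes in the run that holds Cxcl5 and Cxcl1 was called in the main fit. Cxcl5 passed with the replicate block, and Cxcl1 in the libraries numbered 1 alone. Cx3cl1 on chromosome 8 lies beside Ccl17, which gave -0.078 (adjusted p 0.403).

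**Figure D3:**
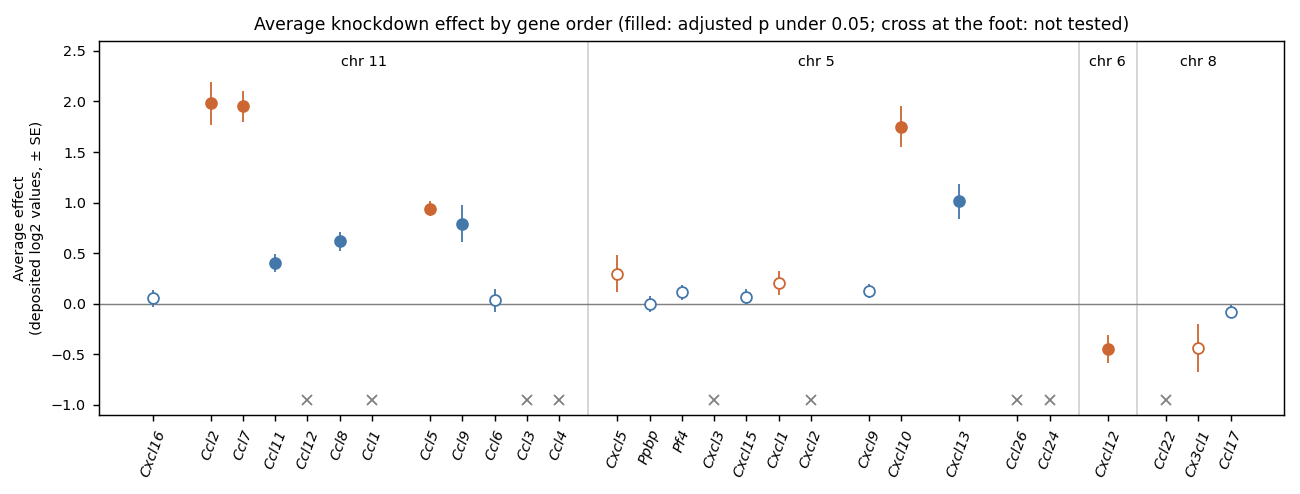
Average knockdown effect on the deposited log2 scale (± SE, limma) for chemokine genes in their order along 4 chromosomes, with gaps between separate runs. Orange marks the 8 chemokines described here and blue the others, filled symbols have an adjusted p under 0.05, and crosses at the foot are genes too low to test. Ccl2 (1.98) and Ccl7 (1.95) stand side by side on chromosome 11, and Cxcl10 (1.75) is above its neighbour Cxcl9 (0.12) on chromosome 5. Cxcl11 is not among the genes drawn.

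Several of the receptors for these ligands were at or near 0 in the cells. Of 23 receptors listed, 22 were in the tables, and 4 of those had no read in any library. The 6 tested had 0 called on average in either direction, where 25.4% of all tested genes were called. Cxcr4, the Cxcl12 receptor, had 0 reads in all 20 libraries. Ccr2, for Ccl2 and Ccl7, had at most 1 read in any library, Cxcr3, for Cxcl10, at most 1, and Cx3cr1 at most 2. The atypical Cxcl12 receptor Cxcr7 was read at a median of 13.4 RPM in scrambled and 13.3 RPM in knockdown libraries, with an effect of 0.082 (limma adjusted p 0.736). Cxcr2, for Cxcl1 and Cxcl5, gave 0.056, Ccr10 -0.061 and Xcr1 0.037 (adjusted p 0.470, 0.281 and 0.728).

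Proteases that release or trim chemokines had 2 of 5 tested higher and 0 lower, of 7 listed, against 12.3% higher and 13.2% lower over all tested genes. Mmp9, a gelatinase that cleaves several chemokines, rose by 1.19 (limma adjusted p 0.000151) and was higher in both knockdown libraries on all 5 days. Mmp14, a membrane-type matrix protease, rose by 0.42 (0.0368), a call that ended without any 1 of 11 libraries (0.0516 to 0.0724). These were library 2 of both arms at day 2, library 2 of scrambled cells and both knockdown libraries at each of days 4, 6 and 8. Adam17, a sheddase of Cx3cl1, gave -0.16 (0.0948, or 0.0315 with the replicate block), and Mmp2 gave 0.42 (0.114).

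The NF-kB list had 6 of 14 tested higher and 1 lower on average, against 12.3% and 13.2% of all tested genes. Nfkbie, an inhibitor that NF-kB itself induces, rose by 1.03 (limma adjusted p 5.61e-06), the subunit gene Nfkb2 by 0.45 (3.98e-05), Birc3 by 0.48 (6.96e-05) and the kinase gene Ikbkb by 0.17 (0.000959), each higher in both knockdown libraries on all 5 days. The Ikbkb call ended in the libraries numbered 2 alone (0.101). The other kinase gene, Chuk, was the 1 that fell, by 0.26 (0.00187). Nfkbia, a further inhibitor gene of the list, gave -0.15 (limma adjusted p 0.123) and Tnfaip3 gave 0.10 (0.511), both named after their values were seen. The median over the list was 0.13.

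Of 9 tested IRF and STAT factors, from 10 listed, 5 rose and 1 fell, where 12.3% and 13.2% of all tested genes did so. Irf7, the interferon-induced amplifier of interferon transcription, rose by 1.94 (limma adjusted p 9.33e-06), and Irf9 and Stat2, partners in the factor that binds the interferon element, rose by 1.46 (5.43e-06) and 1.4998 (3.22e-05). Irf1 rose by 0.66 (7.13e-07). All 4 were higher in both knockdown libraries on all 5 days, and the list's median was 0.66. Irf3, which fell, was at -0.27 (0.00518) and, with Chuk, is named after its value was seen.

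Among 10 tested inducing cytokines and receptors, from 16 listed, 2 rose and 2 fell, close to the 12.3% and 13.2% over all tested genes. Tlr3, the double-stranded RNA sensor, rose by 1.06 (limma adjusted p 1.26e-05), and the tumour necrosis factor receptor gene Tnfrsf1b by 0.34 (0.0267), while Tnfrsf1a fell by 0.47 (0.00560) and the interferon gamma receptor gene Ifngr1 fell by 0.48 (0.0407). The Ifngr1 call ended without any 1 of 11 libraries (0.0566 to 0.0821), the same 11 as for Mmp14. The Tnfrsf1b call ended without scrambled library 2 or either knockdown library of day 6, or knockdown library 1 of day 8 (0.0511 to 0.0556). The Tnfrsf1a call ended in the libraries numbered 2 alone (0.0595). The cytokines themselves were near 0, with at most 1 read of Tnf, Il1b or Ifnb1 in any library, at most 5 of Ifng and 0 of Il17a.

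**Figure D4:**
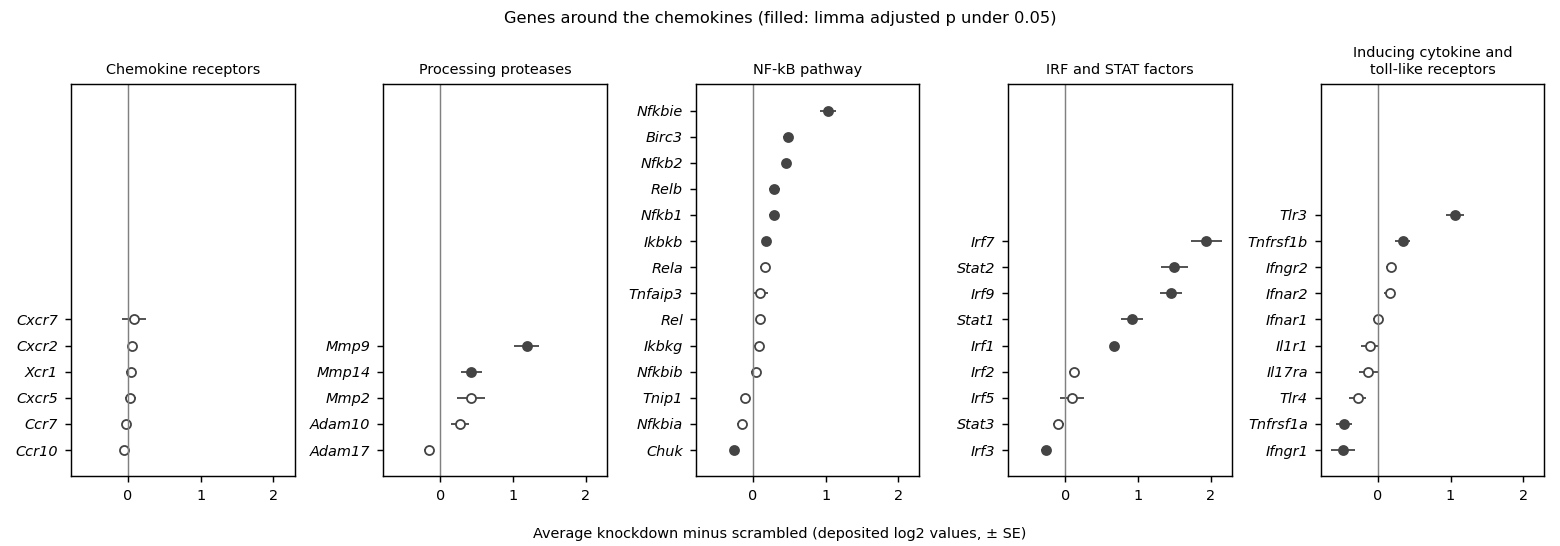
Average knockdown effect on the deposited log2 scale (x axis, ± SE, limma) for tested genes of 5 lists, with filled symbols for an adjusted p under 0.05. None of the 6 receptors was called, 6 of 14 NF-kB genes were called higher, and Irf7 (1.94) had the widest effect of the IRF and STAT factors.

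Among markers of other chemokine-making cells, those of endothelial cells and lymphocytes were low, and those of macrophages were mixed. The 10 macrophage markers summed to 18.9 to 38.0 RPM in scrambled and 27.7 to 40.9 RPM in knockdown libraries. Of 7 tested, 1 rose, Cd14 by 0.48 (limma adjusted p 0.0123), close to the 12.3% of all tested genes that rose. The defining macrophage gene Emr1 had 0 reads in all libraries, and the leukocyte gene Ptprc had at most 3. Itgam, Cd14 and Lyz2 were read in all 20 libraries, at medians of 13.4, 5.67 and 2.99 RPM in scrambled cells. In knockdown cells their medians were 18.1, 9.45 and 4.84 RPM. The 6 endothelial markers summed to 0.758 to 2.21 RPM in scrambled and 0.492 to 1.53 RPM in knockdown libraries, with 0 of 2 tested called. The 6 lymphocyte markers summed to 0.0947 to 0.744 and 0.164 to 0.470 RPM, with 0 of 1 called and Cd3e at 0 reads.

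Profiles over the 20 libraries, as Pearson correlations of log2 levels, were compared with every tested gene and are given as a description, since libraries of an arm share the hairpin. The closest to Ccl2 were Gbp9 (0.954) and Ifit1 (0.946), to Ccl7 Mx1 (0.953) and Birc3 (0.945), and to Cxcl10 Mx1 (0.974) and Trim25 (0.963). Gbp9, Ifit1, Mx1 and Trim25 are interferon-induced genes. The closest to Ccl5 were Samsn1 (0.911) and Il18 (0.903). Cxcl1 was closest to Tgfbi (0.786) and Gtpbp6 (0.778), Cxcl5 to Fgf7 (0.908) and Rab18 (0.895), Cxcl12 to Sema4c (0.911) and Map4k3 (0.903), and Cx3cl1 to Tgfa (0.896) and Atoh8 (0.882).

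Within the arms, where the hairpin is held constant, pairs of the 8 genes varied together to different degrees over 10 libraries each. Cxcl1 and Cxcl5 correlated at 0.78 in scrambled and 0.79 in knockdown cells, and Cxcl5 and Cxcl12 at 0.89 and 0.75. Ccl7 and Cxcl10 gave 0.82 and 0.60. Ccl2 and Ccl5, both higher in knockdown cells, gave 0.58 in scrambled and -0.60 in knockdown cells. Cxcl12 and Cx3cl1 gave 0.77 and 0.50.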

How the data were processed

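RNA-seq values of 20 3T3-L1 libraries, 2 per hairpin and day, were taken from 5 deposited tables, 1 per day, and grouped by the labels. Per the labels, the kit was TruSeq RNA V2, which does not mark strand, so reads of overlapping genes on opposite strands cannot be told apart. Per the submitters' processing notes, the genome was mm9 and the tools were TopHat2 2.0.13, Bowtie2 2.2.3.0, SAMtools and DESeq2 1.10.1. Which read counter and which annotation were used is not given in the sources used here. Each deposited table holds variance-stabilised log2 values per library, normalised by the authors within the day. Beside them the authors give a mean signal (mean normalised count), a log2 fold change and its error, a test score, and raw and adjusted p-values. There were 0 unused columns of per-library values.

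The transformation was inverted to the recovered counts behind the deposited values. Of low values, up to 100 reads, 100% lay within 0.02 reads of a whole number. RPM is recovered reads scaled to 1000000 per library. Knockdown effects were fitted with limma 3.58.1, with trend and robust estimation (statmod 1.5.0, R 4.3.3), from the deposited log2 values. The fit gave 10 group means 10 residual degrees of freedom, and the average effect had day as a factor and 14. In the average, 10 libraries of an arm enter as independent samples, and they may come from 1 selected population. Changes over days were fitted with limma voom on recovered counts. P-values were adjusted over 16497 genes (Benjamini-Hochberg, 0.05). Scripts were tested on simulated data.

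The labels number the libraries of each group 1 and 2. Deviations of same-numbered libraries correlated at 0.783, 0.702, 0.551, 0.537 and 0.468 at days 0 to 8. The numbers were treated as pairing from these correlations alone, and the main fits left it out. A replicate block, joining the libraries of 1 number within a day, was an alternative. It left 5 residual degrees of freedom in the fit of single days and more in that of the average. Other alternatives were no filter or a filter at 50, quantile normalization, median centring, no trend or robust estimation, other scalings of recovered counts, limma on log2(RPM + 0.5), fitting each table alone, and leaving out libraries 1 at a time. Fits without day 8, on libraries of 1 number and without 3 late scrambled libraries were added after seeing the data.

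The 8 chemokines and the gene lists were chosen with earlier results of these data known. All 8 were named, with Tcf7l2 and up to 4 genes per other list by smallest adjusted p of the average effect. The 2 genes outside the 8 that were closest in profile to each chemokine (log2(RPM + 0.5)) were named too. Coordinates of promoters are from RefSeq GRCm38.p6, a later build than mm9, and no other coordinates were used. The values of 1 listed receptor gene are not reported here.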

Additional observations from a re-analysis of the deposited data

How the results depend on the processing

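The count of 5 chemokines called on average, Ccl2, Ccl5, Ccl7, Cxcl10 and Cxcl12, was 5 without each of the 20 libraries in turn (5 to 5). It was 4 without day 8 or in the libraries numbered 2 alone, where Cxcl12 was lost. It was 7 in the libraries numbered 1 alone, where Cxcl1 and Cx3cl1 were gained. Single-day counts were less stable. Leaving out 1 library gave 0 to 1 at day 0, 0 to 2 at day 2, and 0 to 4 at each of days 4, 6 and 8. It gave 1 to 5 for scrambled and 0 to 2 for knockdown time courses, and 0 to 0 for effects differing between days. With the replicate block the counts for days 0, 2, 4, 6 and 8 were 1, 4, 4, 4 and 6, with 6 on average and 0 for effects differing between days. A separate fit per table gave 4 at day 2 and 0 at days 6 and 8, and voom gave 2 at days 6 and 8. At day 4 each gave 2, the separate fit without Ccl5 (adjusted p 0.113) and voom without Cxcl10 (0.0668). Without the scrambled libraries numbered 2 of days 4, 6 and 8, day 0 had 4 and the knockdown time course 4. That setting also ended Cxcl10 at days 4, 6 and 8 (adjusted p 0.108, 0.211 and 0.0789) and Ccl2 and Ccl7 at day 8 (0.158 and 0.0762). Day 8 then had Ccl5 called higher, and Cxcl12 (-1.13, 0.0295) and Cx3cl1 (-1.70, 0.0161) called lower, in place of 4 higher. Limma on log2 RPM gave 4 in the scrambled and 3 in the knockdown time course, and quantile normalization 2 in the latter. The cause was not tested.

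Values that changed direction had not passed the test. Without 1 library, Cxcl1 ranged from -0.25 to 0.24 at day 0 (-0.0017 with all libraries, voom 0.0046), from -0.20 to 0.31 at day 4 and from -0.39 to 0.14 at day 6. Cxcl5 ranged from -0.53 to 0.062 at day 0 and from -0.22 to 0.79 at day 6, with -0.22 without the 3 late scrambled libraries. Cxcl12 ranged from -0.48 to 0.097 at day 4, and Cx3cl1 from -0.74 to 0.44 at day 4 and from -1.02 to 0.68 at day 6. Ccl5 in knockdown cells ranged from -0.29 to 0.15 at day 4 against day 0. Average effects ranged from -0.0038 to 0.068 for Xcr1, with -0.020 without day 8 and -0.077 in libraries numbered 2, and from -0.0094 to 0.17 for Cxcr7, with -0.17 in libraries numbered 1 and -0.065 without the 3 late scrambled ones. Depth limits Ccl5 and Cxcl10 most, with as few as 11 and 4 reads in a scrambled library.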
